A study of Mus musculus with 4 samples.

Results

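Replication-dependent histone genes encode the bulk of the histones that package newly copied DNA. They were taken from the RefSeq annotation of the mouse assembly GRCm38.p6 as protein-coding genes named H1f1 to H1f6, or with a symbol that starts with H2ac, H2bc, H3c or H4c and a number, or with an older name of the Hist1h to Hist4h series. This rule used no measured value and gave 67 genes out of 21883 protein-coding genes. Current symbols gave 63 of them, and older names added H4f16, H2bu2, H2aw and H4bc24, the last counted as an H2B gene after its older name. The 67 genes comprised 6 linker histone H1 genes and 18 H2A, 18 H2B, 12 H3 and 13 H4 core histone genes. Their median length was 492 bp, and 61 of them were at most 1 kb long.

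The study mapped p53 and PPAR-alpha, a nuclear receptor of lipid metabolism, by chromatin immunoprecipitation and sequencing (ChIP-seq) in mouse thymus. All libraries came from mice at 4 weeks of age with the germline genotype p53 AD/AD, whose p53 the series describes as dimeric, and no other genotype was used here. There were 2 libraries for p53 read at 50 nt, 1 for PPAR-alpha read at 75 nt and 1 input read at 50 nt, which was not analysed here. Antibody and read length changed together and cannot be told apart, and the PPAR-alpha library has no replicate. The labels do not say whether the p53 libraries came from separate mice, so their difference may be technical. Summit lists hold no expression values, so the tissue label could not be checked against marker genes.

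Each list gives summits, the bases of highest signal within called peaks, with the authors' score for each. There were 3608 summits in the list of p53 replicate 1, 4767 in that of p53 replicate 2 and 4070 in that of PPAR-alpha. The sources used here give no read numbers, so the depth of each library is unknown. With 2 libraries against 1, no test between antibodies was possible, and all counts are descriptions of these 3 lists. The 95% intervals are exact (Clopper-Pearson for shares, Poisson for counts) and cover counting error only. They treat genes or summits as independent, while neighbouring histone genes share summits, so they are too narrow.

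Core histones H2A, H2B, H3 and H4 form the nucleosome, and H1 binds the linker DNA between nucleosomes. Replication-dependent genes are transcribed mainly in S phase, lack introns as a rule and make messages that end in a stem-loop in place of a poly(A) tail. Their promoters often carry a CCAAT element and a TATA box, and those of H2A and H2B genes the octamer motif, which the factor encoded by Pou2f1 binds. The thymus holds many dividing thymocytes, and dividing cells use this gene family.

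The sequences below cover the 250 bases before the annotated start, from RefSeq on GRCm38.p6, written 5′ to 3′ on the strand of the gene. Capitals mark the CCAAT element, the TATA box letters TATAAA and the octamer motif ATTTGCAT, each on either strand. H4f16 (chr6:136804432-136804681, minus strand), H4c8 (chr13:23530794-23531043, plus strand) and H1f2 (chr13:23738557-23738806, plus strand) are shown because each had a summit of all 3 lists within 1 kb. H2ac20 (chr3:96220881-96221130, minus strand) is shown because a PPAR-alpha summit lay 36 bp past its start. H2bc23 (chr13:21810200-21810449, minus strand) and H4bc24 (chr13:21833493-21833742, plus strand) are shown as copies of each other in a stretch with no summit near any histone gene.
H4f16: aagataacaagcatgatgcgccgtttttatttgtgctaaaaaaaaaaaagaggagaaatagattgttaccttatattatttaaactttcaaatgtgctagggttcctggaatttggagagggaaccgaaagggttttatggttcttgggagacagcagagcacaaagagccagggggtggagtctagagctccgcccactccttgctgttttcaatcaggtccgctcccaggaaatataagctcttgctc
H4c8: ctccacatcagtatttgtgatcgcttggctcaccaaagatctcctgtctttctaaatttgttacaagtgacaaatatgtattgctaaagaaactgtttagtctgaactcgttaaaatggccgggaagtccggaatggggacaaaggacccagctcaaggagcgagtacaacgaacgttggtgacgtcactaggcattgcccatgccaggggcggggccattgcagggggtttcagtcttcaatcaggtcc
H1f2: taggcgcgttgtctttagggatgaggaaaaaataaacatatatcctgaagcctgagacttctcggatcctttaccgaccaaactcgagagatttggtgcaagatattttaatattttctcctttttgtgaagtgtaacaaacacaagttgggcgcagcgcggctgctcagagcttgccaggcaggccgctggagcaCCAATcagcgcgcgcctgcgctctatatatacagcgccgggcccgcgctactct
H2ac20: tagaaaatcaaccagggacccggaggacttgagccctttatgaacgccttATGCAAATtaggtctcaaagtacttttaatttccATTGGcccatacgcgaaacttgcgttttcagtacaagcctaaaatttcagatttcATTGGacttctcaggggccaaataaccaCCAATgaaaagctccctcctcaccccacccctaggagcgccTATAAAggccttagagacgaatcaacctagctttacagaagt
H2bc23: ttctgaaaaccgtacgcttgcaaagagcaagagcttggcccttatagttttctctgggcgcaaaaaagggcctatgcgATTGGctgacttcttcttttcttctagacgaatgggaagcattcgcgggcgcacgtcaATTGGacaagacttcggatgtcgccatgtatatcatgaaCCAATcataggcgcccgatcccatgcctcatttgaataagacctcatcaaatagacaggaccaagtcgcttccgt
H4bc24: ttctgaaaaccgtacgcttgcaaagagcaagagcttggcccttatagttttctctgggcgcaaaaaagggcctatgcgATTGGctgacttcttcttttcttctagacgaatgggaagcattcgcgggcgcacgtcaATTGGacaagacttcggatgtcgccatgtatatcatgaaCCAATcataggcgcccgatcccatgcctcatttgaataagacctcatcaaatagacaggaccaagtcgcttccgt

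In each list, a larger share of the histone genes than of all protein-coding genes had a summit nearby, and the share was largest in p53 replicate 1. Within 5 kb of either end of the gene, p53 replicate 1 had a summit at 32 of the 67 histone genes (47.8%, interval 35.4 to 60.3%), where the share over all protein-coding genes was 13.0%. p53 replicate 2 had one at 27 (40.3%, interval 28.5 to 53%), against 16.4% of all genes. PPAR-alpha had one at 16 (23.9%, interval 14.3 to 35.9%), against 12.3% of all genes. At this window the interval of each list lay above the share of all genes, but the intervals are too narrow because neighbouring genes share summits. The 16 genes of PPAR-alpha rest on 11 distinct summits, and its lower bound of 14.3% is near 12.3%. Its interval therefore does not set PPAR-alpha apart from all genes.

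Both p53 replicates had a summit within 5 kb at 16 histone genes (23.9%), against 7.97% of all genes. All 3 lists did so at 10 (14.9%), against 4.87%. Those were H4c14, H3c13, H2bc18, H4f16, H2bc13, H4c8, H2ac10, H3c8, H2bc6 and H1f2. Any list had one at 45 (67.2%), against 24.7%, and 22 histone genes had none. When each summit counted for its nearest gene only, the numbers were 17, 14 and 10 in p53 replicates 1 and 2 and in PPAR-alpha (25.4%, 20.9% and 14.9%, all genes 9.81%, 12.5% and 9.4%), 5 in both p53 replicates and 5 in all 3 lists. Without runs of at least 5 summits within 50 kb, 9 histone genes had both p53 replicates and 6 had all 3 lists. Under these settings the share of all genes was not computed for overlaps of lists, so these overlap counts cannot be set against it. No interval was computed under them either, so the nearest-gene shares of single lists are not set apart from those of all genes.

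Closer to the genes, the order of the lists was the same. Within 1 kb a summit lay at 25 histone genes in p53 replicate 1 (37.3%, interval 25.8 to 50.0%), where 9.21% of all genes had one. It lay at 15 in p53 replicate 2 (22.4%, interval 13.1 to 34.2%; all genes 11.9%) and at 10 in PPAR-alpha (14.9%, interval 7.4 to 25.7%; all genes 8.8%). The interval of PPAR-alpha held the share of all genes, and those of the p53 lists did not, though these intervals are too narrow. The lower bound of p53 replicate 2, 13.1%, is near 11.9%. Both p53 replicates had a summit within 1 kb at 6 histone genes (8.96%, interval 3.36 to 18.5%, all genes 5.07%). All 3 lists did so at 4 (5.97%, interval 1.65 to 14.6%, all genes 2.8%), which were H4c14, H4f16, H4c8 and H1f2. The intervals of these overlaps held the shares of all genes. Any list had a summit at 36 (53.7%, all genes 19.0%).

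**Figure D1:**
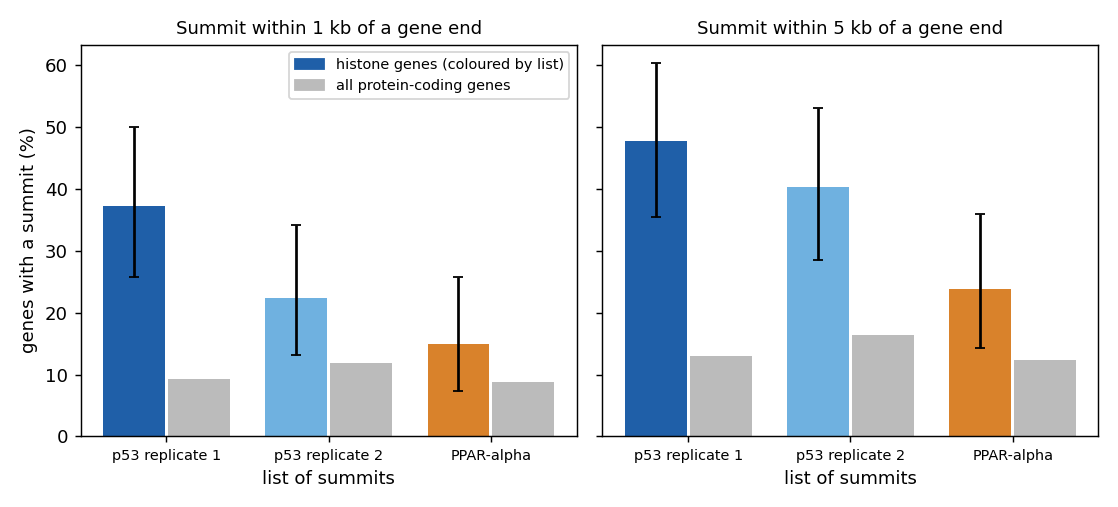
Share of genes with a summit within 1 kb (left) or 5 kb (right) of a gene end, in percent, for each list of summits. Coloured bars are the 67 histone genes with exact 95% intervals as error bars and grey bars are all 21883 protein-coding genes. At 5 kb the coloured bars stand at 47.8%, 40.3% and 23.9%, above grey bars of 13.0%, 16.4% and 12.3%.

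Because histone genes are crowded, a summit can count for several of them, so distinct summits were counted as well. Within 5 kb of the 67 genes lay 18 distinct summits of p53 replicate 1, 18 of p53 replicate 2 and 11 of PPAR-alpha. The windows cover 337 kb in all, which gives 5.35 summits per 100 kb for each p53 list (interval 3.17 to 8.45) and 3.27 for PPAR-alpha (1.63 to 5.85). The windows around all protein-coding genes held 0.74, 0.97 and 0.74 per 100 kb in p53 replicates 1 and 2 and in PPAR-alpha. The density of summits was therefore above that around all genes in each list, without the multiple counting. The windows of short, crowded genes overlap, so they cover fewer bases per gene than the 327000 kb around all 21883 genes. Density per kb is thus not a share per gene, and the part of gene length and crowding in the difference was not tested. Within 1 kb there were 18, 13 and 8 distinct summits, or 13.2, 9.56 and 5.88 per 100 kb, against 2.24, 2.95 and 2.16 around all genes.

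Most of the p53 summits had low scores, and few remained when only scores of 5 or more were kept. The median score near the histone genes was 3.99 in p53 replicate 1 (range 2.18 to 11.6), 3.29 in p53 replicate 2 (1.34 to 8.48) and 5.3 in PPAR-alpha (2.57 to 8.57). A score of 5 or more was reached by 3 of the 18 summits of p53 replicate 1 (16.7%, whole list 28.7%), 4 of 18 of p53 replicate 2 (22.2%, whole list 26.3%) and 6 of 11 of PPAR-alpha (54.5%, whole list 48.1%). With such summits alone, 4, 6 and 12 histone genes had one within 5 kb in p53 replicates 1 and 2 and in PPAR-alpha. These are 5.97%, 8.96% and 17.9% of the histone genes, beside 4.19%, 5.31% and 6.07% of all genes. Most of the histone genes counted for the p53 lists were thus counted through summits scoring under 5. Scores come from separately made lists and are not comparable between them as signal, and this limit keeps a larger part of the PPAR-alpha list, so the order of the lists under it is not read.

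Summits of different lists at histone genes seldom fell on the same base. Within 100 bp, 1 of the 18 summits of p53 replicate 1 had a partner in p53 replicate 2 (5.56%), while over the whole list 20.8% had one. Seen from p53 replicate 2 it was 1 of 18 (5.56%), against 15.7% of its list. With PPAR-alpha, 2 of the 18 of p53 replicate 1 (11.1%, whole list 17.4%) and 1 of the 18 of p53 replicate 2 (5.56%, whole list 15.6%) were shared. Those are 18.2% and 9.09% of the 11 PPAR-alpha summits, against 15.4% and 18.3% of the whole PPAR-alpha list. Within 500 bp, 4 summits of p53 replicate 1 had a partner in p53 replicate 2 (22.2%, whole list 43.5%). Where lists had the same gene, their summits thus mostly lay more than 100 bp apart. The positions they shared within 100 bp were at H4f16 and, between p53 replicate 1 and PPAR-alpha, at H2bc21.

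The 67 genes fell into 5 clusters when neighbours at most 500 kb apart were joined. The counts per cluster stand beside the shares of all genes within 5 kb. These are 13.0%, 16.4% and 12.3% in p53 replicates 1 and 2 and in PPAR-alpha. Within 1 kb they are 9.21%, 11.9% and 8.8%. Crowded genes of a cluster share summits, so these counts are not independent. H4f16 stands alone on chromosome 6 (136803993 to 136804431, minus strand) and had the highest scores of the family in both p53 lists. Its summits lay at 136804226 in p53 replicate 1 (score 11.6), at 136804262 in p53 replicate 2 (8.48) and at 136804182 in PPAR-alpha (5.3). All 3 lie inside this short H4 gene and within 80 bp of each other. p53 replicate 2 had further weak summits at 136803739 (1.83), past the 3′ end, and at 136808501 (2.37), 4070 bp upstream. The latter lies inside H2aj, a variant H2A gene, 253 bp from an end of H2aj. An end of H2aj lies 4022 bp from the summit of p53 replicate 1, and H2aj has the same summits within 5 kb as H4f16.

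The cluster on chromosome 3 (96219885 to 96270192) holds 10 genes in 50.3 kb. It had 3 distinct summits of p53 replicate 1, 4 of p53 replicate 2 and 5 of PPAR-alpha within 5 kb, near 6, 3 and 6 genes. At its proximal end, 3 PPAR-alpha summits lay within 5 kb of the neighbouring core histone genes H2ac21, H2ac20 and H2bc21. The summit at 96220844 (6.55) lay inside H2ac20, and those at 96221262 (4.13) and 96222304 (4.7) inside H2bc21. The nearest to H2ac21 lay 490 bp from its end. The p53 replicate 1 summit there, 96221265 (3.99), lay 3 bp from the PPAR-alpha summit at 96221262, and p53 replicate 2 had none within 5 kb of these 3 genes.

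At the other end of the chromosome 3 cluster lie H4c14, H3c13 and H2bc18, which had summits of all 3 lists within 5 kb. At H4c14 they were at 96263807 in p53 replicate 1 (2.18), 96264007 in p53 replicate 2 (5.08) and 96263281 in PPAR-alpha (4.7). Only the PPAR-alpha summit lay inside this H4 gene, 36 bp from its end. The p53 replicate 2 summit at 96268693 (2.97) lay 39 bp past the start of H3c13. At H2bc18 the p53 summits were 119 bp apart, at 96269759 (2.18) and 96269878 (2.97), and the PPAR-alpha summit at 96274107 (2.57) lay 3915 bp away. The 4 genes in the middle, H3c15, H2ac19, H2ac18 and H3c14, had no summit of any list within 5 kb.

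The first cluster on chromosome 13 (21715711 to 22043658) holds 23 genes in 328 kb and was reached mainly by p53 replicate 1. That list had 5 distinct summits within 5 kb of its genes, and p53 replicate 2 and PPAR-alpha had 1 each, near 8, 1 and 1 genes. Within 1 kb the numbers of genes were 6, 0 and 0. All 5 summits of p53 replicate 1 lay at the outer ends of the cluster. Those at 21716822 (3.99) and 21718137 (4.7) lay 37 bp from the 3′ end of H2ac13 and 22 bp from that of H3c10, and the former lay 639 bp from H2bc13. Those at 22040763 (2.74), 22042491 (3.34) and 22043718 (2.74) lay 197, 13 and 60 bp from the 3′ ends of H4c9, H2ac11 and H2bc11. The single summits of p53 replicate 2 (21710809, score 2.37) and PPAR-alpha (21710915, score 6.55) lay 4902 and 4796 bp from H2bc13 and 159 and 79 bp from tRNA genes. H2bc13 counts among the 10 genes near all 3 lists only through these summits and those of p53 replicate 1.

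Between those outer ends, 15 consecutive genes from H4c11 to H2ac12 had no summit of any list within 5 kb. This run spans 301 kb (chromosome 13, 21735034 to 22035643) and holds H4c11, H4c12, H2ac15, H2bc15, H1f5, H3c11, H2ac22, H2bc22, H2bc23, H2ac23, H4c17, H4c18, H2ac24, H4bc24 and H2ac12. Inside it, farther from histone genes, lay 0 summits of p53 replicate 1, 1 of p53 replicate 2 and 4 of PPAR-alpha.

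The second cluster on chromosome 13 (23531044 to 23934913) holds 31 genes in 404 kb. Of these, 28 (90.3%, all genes 24.7%) had a summit of some list within 5 kb, many through a summit shared with neighbours. It had 8 distinct summits of p53 replicate 1, 8 of p53 replicate 2 and 4 of PPAR-alpha, near 16, 20 and 8 genes. The 3 genes without one were H3c6 and the distal pair H2bc1 and H2ac1. At H4c8, which opens the cluster, summits lay at 23531418 in p53 replicate 1 (2.18), 23531681 in p53 replicate 2 (3.62) and 23531131 in PPAR-alpha (7.88). The PPAR-alpha summit was 87 bp past the start, and the p53 summits were 60 bp before and 203 bp past the 3′ end. The neighbours H2ac10 and H3c8 count for all 3 lists through the H4c8 summits, and p53 replicate 2 had another at 23535191 (2.37), 227 bp before the start of H3c8 and 813 bp from H2ac10.

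The linker histone genes of the second cluster stood apart from each other by list. H1f2 had summits at 23739234 in p53 replicate 1 (3.99), 23740197 in p53 replicate 2 (1.34) and 23738929 in PPAR-alpha (4.7), with those of p53 replicate 1 and PPAR-alpha inside the gene. H1f4 had them at 23622066 in p53 replicate 1 (4.7) and 23622390 in PPAR-alpha (8.57), the highest PPAR-alpha score at a histone gene, both inside the gene. p53 replicate 2 had none within 5 kb of H1f4. H1f3 (23555784, score 4.7) and H1f1 (23763319, score 4.7) had summits of p53 replicate 1 alone within 5 kb. H1f6 had one of p53 replicate 2, 1250 bp away, and H1f5 of the first cluster had none.

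Among the core histone genes of the second cluster, most summits were found in 1 of the p53 libraries only. p53 replicate 1 had summits at 23543974 (3.99), 78 bp from H3c7 and 530 bp from H2bc9, and on both sides of H2bc3 at 23746454 and 23747260 (5.45 each). H3c3 lay 933 bp from the nearer of these, and H3c1 lay 933 bp from the summit that serves H1f1. p53 replicate 2 had summits at 23571848 (3.62), 15 bp from the end of H2bc8 and 628 bp from H2ac8, at 23697795 (4.33) next to H4c3 and at 23757026 (4.33) inside H4c2. Its summit at 23751940 (1.34) lay 348 bp from H2ac4 and 405 bp from H3c2. PPAR-alpha alone had a summit near H2ac6 and H2bc4, at 23684624 (5.91). Of all 31 genes of this cluster, 10 were near a summit of both p53 libraries (32.3%, all genes 7.97%). H2bc6, annotated over 37455 bp, had summits at opposite ends. Those of p53 replicate 1 and PPAR-alpha, 942 and 1266 bp from its 5′ end, are the H1f4 summits. That of p53 replicate 2, at 23585308 (5.88), lay 1638 bp from its 3′ end. H2bc6 counts as near all 3 lists only through these separate sites.

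The pair on chromosome 11, H2bu2 and H2aw (58948911 to 58955192), had p53 summits only. p53 replicate 1 had 1 at 58955237 (3.99), 45 bp past the 3′ end of H2aw. p53 replicate 2 had 58948131 (4.33), 780 bp before H2bu2, and 58953380 (2.97), 1305 bp before H2aw. PPAR-alpha had no summit within 5 kb of either gene.

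**Figure D2:**
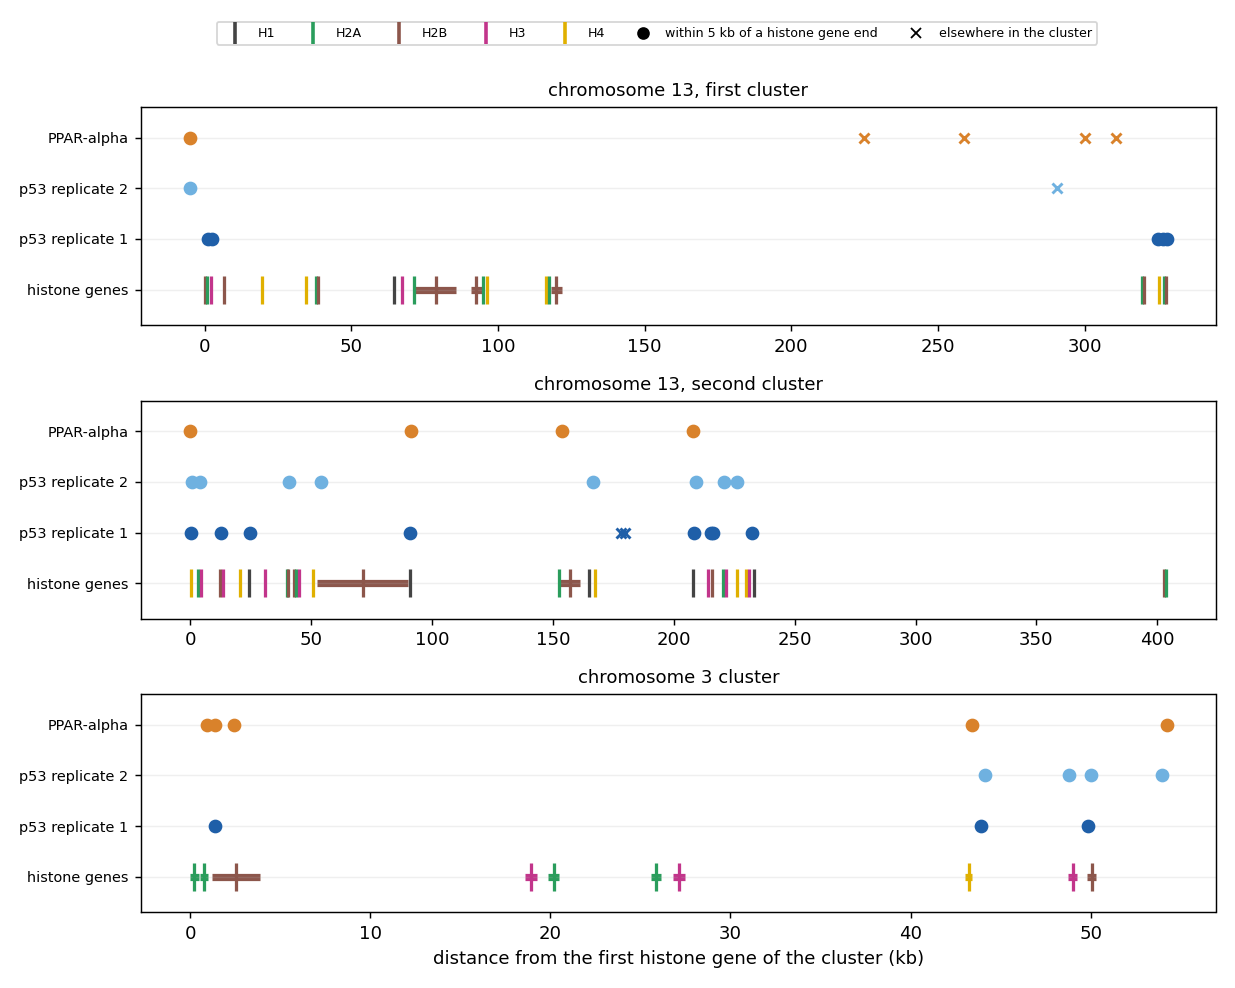
Summits along the 3 large clusters, as distance in kb from the first histone gene. Vertical ticks are histone genes coloured by type, with horizontal bars for their length. Filled circles are summits within 5 kb of a histone gene end, and crosses are summits elsewhere in the cluster. In the first chromosome 13 cluster the filled circles stand at the outer ends, with 15 genes between them, and in the second they are spread over the genes of its first part.

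All 5 histone types were represented in each list. Over all protein-coding genes, 13.0%, 16.4% and 12.3% had a summit within 5 kb in p53 replicates 1 and 2 and in PPAR-alpha. Within 1 kb these shares were 9.21%, 11.9% and 8.8%. Within 5 kb, H1 genes had a summit in 4, 2 and 2 of 6 cases in p53 replicates 1 and 2 and in PPAR-alpha, with 4, 2 and 2 distinct summits. H2A genes had one in 7, 5 and 4 of 18 cases (10, 5 and 5 distinct summits), and H2B genes in 9, 7 and 5 of 18 (11, 9 and 7). H3 genes had one in 6, 6 and 2 of 12 cases (9, 10 and 2 distinct summits), and H4 genes in 6, 7 and 3 of 13 (8, 10 and 3). A summit between genes of different types counts for each type, so these numbers add to more than the totals. Within 1 kb, the H3 genes had 5, 3 and 0 and the H4 genes 4, 5 and 3. Of the 4 genes with all 3 lists within 1 kb, 3 encode H4 and 1 encodes H1. With 6 to 18 genes a type and shared summits, these counts set no type apart from another. No interval was computed to set a type against all genes.

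Many p53 summits lay at the far end of the histone gene and not at its start. Strand was known for 62 of the 67 genes, not for H3c7, H2bc4, H3c1, H2bc21 and H4c14. Of the summits within 1 kb of a histone gene with known strand, 11 of 15 in p53 replicate 1 (73.3%) were nearer to the 3′ end of that gene. In p53 replicate 2 it was 6 of 12 (50.0%), and in PPAR-alpha 1 of 5. Over all protein-coding genes, histone genes included, the shares were 67 of 1452 (4.61%), 87 of 1928 (4.51%) and 88 of 1418 (6.21%). Among other genes of at most 2 kb they were 6 of 43 (14.0%), 13 of 68 (19.1%) and 12 of 57 (21.1%). The p53 shares at histone genes were thus above those at other short genes, and the 5 PPAR-alpha summits are too few to place.

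In p53 replicate 1, 8 of the 11 lay within 60 bp of the 3′ end, at H2aw, H2ac13, H3c10, H2ac11, H2bc11, H1f3, H2bc3 and H4c8. In p53 replicate 2 the nearest was 15 bp away, at H2bc8. Few high-scoring summits were among them, since with a score of 5 or more 1 of 3 in p53 replicate 1 and 0 of 1 in p53 replicate 2 were nearest a 3′ end. This comparison was chosen after the values were seen. In a gene of about 492 bp the ends are so close that a small shift decides which is nearer. The part of fragment length or summit placement in it was not tested.

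**Figure D3:**
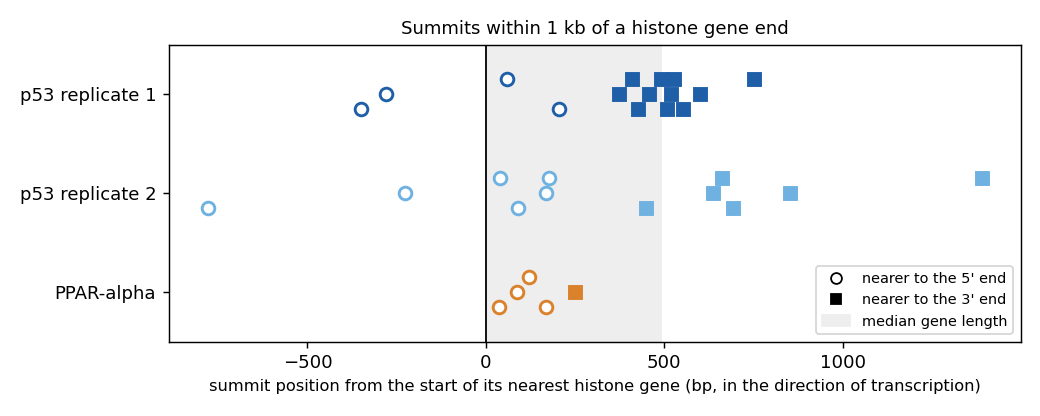
Position of each summit within 1 kb of a histone gene with known strand, in bp from the start of that gene in the direction of transcription, by list. Open circles are nearer to the 5′ end and filled squares nearer to the 3′ end, and the shaded band is the median gene length of 492 bp. Filled squares number 11 of 15 in p53 replicate 1, 6 of 12 in p53 replicate 2 and 1 of 5 in PPAR-alpha.

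The share of start regions that held a summit was not above that of all genes. In the 63 windows from 250 bases before to 50 after the start, there was 1 PPAR-alpha summit, 36 bp past the start of H2ac20, and there were 2 of p53 replicate 2, 39 bp past the start of H3c13 and 227 bp before that of H3c8. p53 replicate 1 had none there. These are 0, 3.17% and 1.59% of the windows in p53 replicates 1 and 2 and in PPAR-alpha, beside 2.82%, 3.96% and 2.9% of the 21262 windows of all protein-coding genes. Divergent pairs of an H2A and an H2B gene share 1 short promoter, and 10 such pairs had starts 163 to 280 bp apart. None of the 10 had a summit of any list between the starts. Within 1 kb of a pair lay summits at 2 pairs in p53 replicate 1, 1 in p53 replicate 2 and 0 in PPAR-alpha. The gaps are short and no such share was computed over other genes, so these counts say nothing about the pairs. The neighbours H2ac20 and H2bc21, and H2ac6 and H2bc4, were not among the 10 because the strand of the H2B gene was not known, and both had PPAR-alpha summits within 1 kb.

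The promoters carried the known elements of the family. In the 250 bases before the start, CCAAT occurred on either strand in 52 of 63 histone windows (82.5%), against 35.4% of 21262 windows of all protein-coding genes. TATAAA occurred in 29 (46.0%, all genes 11.6%) and ATTTGCAT in 14 (22.2%, all genes 1.58%). By type, ATTTGCAT was in 38.9% of H2A and 41.2% of H2B windows and in 0 of the H1, H3 and H4 windows, as in the H2ac20 sequence above. CCAAT was in all H1, H2A and H2B windows but in 25.0% of the H4 windows, and the H4f16 and H4c8 sequences above hold none. Each motif was searched by itself, so matches of different motifs may overlap.

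Elements of the types that p53 and PPAR-alpha are known to bind were searched in the same windows. A p53 half-site occurred in 5 of 63 (7.94%), beside 6.31% of all windows. For the DR1 element, the type of site that PPAR-alpha binds with RXR, only the exact letters AGGTCA, any base and AGGTCA were searched. They were in 0 of 63, beside 9 of all 21262 windows (0.0423%). Because this string is so rare in all windows, the 0 says nothing about the histone genes. The half-site was in 6.25% of the 32 windows of genes with a summit within 1 kb and in 9.68% of the 31 without one. CCAAT was in 87.5% and 77.4% of these, TATAAA in 43.8% and 48.4%, and ATTTGCAT in 28.1% and 16.1%. Such a match is a description of the letters in this window, while most of the summits lie outside it.

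Genes without a summit often had a start window that shares sequence with that of another gene. The 50-base stretches of each window, as long as a p53 read, were looked up in the start windows of all other genes. Windows that overlap it in the genome, as in divergent pairs, were left out. None of the 41 windows of histone genes with a summit within 5 kb shared a stretch with a window searched, and 12 of the 22 without one did (54.5%). With 75-base stretches, the PPAR-alpha read length, it was 0 of 41 and 10 of 22 (45.5%). The sequences of H2bc23 and H4bc24 shown above are equal in 250 of 250 bases, and all of their 50-base stretches have a copy.

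Other copies in the empty stretches were H4c17 and H4c18 (94.0% of stretches shared), H3c14 and H3c15 (74.1%) and H2ac18 and H2ac19 (67.7%). H2ac23 and H2ac24 shared 86.9% and 73.3%, and H4c11 and H4c12 shared 11.6% each. They include all 4 genes of the empty stretch on chromosome 3. The sources used here do not say how reads with several matches were treated, and the part of shared sequence in the lack of summits was not tested. The remaining 10 windows without a summit had no such copy, and gene bodies were not compared.

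**Figure D4:**
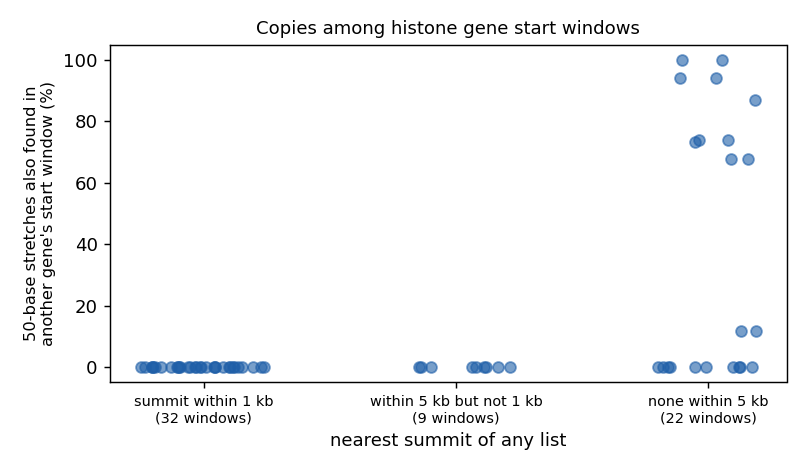
Share of the 50-base stretches of each histone gene start window that also occur in the start window of another gene, in percent, by the nearest summit of any list. Start windows that overlap in the genome were not compared. Each point is 1 window and is spread sideways for view. All 41 windows with a summit within 5 kb are at 0, and 12 of the 22 without one lie between 11.6% and 100%.

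Other histone genes and the genes that serve histone supply were counted in the same way. Replacement and variant histones, which are made outside S phase as well, had a summit within 5 kb in 5 of 11 cases in p53 replicate 1, 6 in p53 replicate 2 and 4 in PPAR-alpha (45.5%, 54.5% and 36.4%, against 13.0%, 16.4% and 12.3% of all genes). The exact interval of PPAR-alpha (10.9 to 69.2%) held the share of all genes, and those of the p53 lists (16.7 to 76.6% and 23.4 to 83.3%) did not. Within 1 kb the intervals of all 3 lists (6.02 to 61.0%, 10.9 to 69.2% and 2.28 to 51.8%) held the shares of all genes (9.21%, 11.9% and 8.8%). H3f3a, which encodes H3.3, had 192, 265 and 329 bp to its nearest summit and best scores of 3.34, 3.62 and 4.13 in p53 replicates 1 and 2 and in PPAR-alpha. Macroh2a1 and H2aj also had all 3 lists, but H2aj counts for p53 replicate 1 and PPAR-alpha only through the H4f16 summits, 4022 and 4066 bp away. H2ax was near summits of p53 replicate 2 (5.08) and PPAR-alpha (5.3), H3f3b in both p53 lists, H2az1 in p53 replicate 2 and Cenpa in p53 replicate 1.

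Of 22 genes for histone gene transcription and for 3′ end processing of histone messages, 2, 11 and 6 had a summit within 5 kb in p53 replicates 1 and 2 and in PPAR-alpha (9.09%, 50.0% and 27.3%, against 13.0%, 16.4% and 12.3% of all genes). The exact intervals of p53 replicate 1 (1.12 to 29.2%) and PPAR-alpha (10.7 to 50.2%) held the share of all genes, and that of p53 replicate 2 (28.2 to 71.8%) did not. Within the PPAR-alpha list the highest scores of this group were at Cpsf2 (28.1), a subunit of the cleavage complex, and at Slbp (18.0), whose product binds the stem-loop. Both genes also had a summit in p53 replicate 2. Pou2f1 had a summit in all 3 lists (2.18, 5.08 and 7.88), and Yy1 in both p53 lists (7.93 and 3.62). Hinfp, which encodes a regulator of H4 genes, had 8.48 in p53 replicate 2 and 2.57 in PPAR-alpha. Ncbp1 and Nfya were near summits of p53 replicate 2 and PPAR-alpha, and Npat, Lsm10, Zfp473 and Cpsf3 near those of p53 replicate 2 alone.

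Of 21 genes for histone chaperones and nuclear import, 5, 6 and 3 had a summit within 5 kb in p53 replicates 1 and 2 and in PPAR-alpha (23.8%, 28.6% and 14.3%, against 13.0%, 16.4% and 12.3% of all genes), and none had all 3 lists. The exact intervals of all 3 shares held the share of all genes (8.22 to 47.2%, 11.3 to 52.2% and 3.05 to 36.3%). Daxx, a chaperone of H3.3, had the highest PPAR-alpha score of this group (12.3, 418 bp away), and its p53 replicate 1 summit (1.68) lay 4620 bp away. Nasp, Ubn1 and Anp32e had summits in both p53 lists, with best scores of 2.74 and 1.34, 7.07 and 1.83, and 6.24 and 2.37. Chaf1a was near summits of p53 replicate 1 (6.24) and PPAR-alpha (3.06). Rbbp4, Hira and Nap1l4 had one in p53 replicate 2 alone, and Supt16 in PPAR-alpha alone.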

How the data were processed

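ChIP-seq summits of 2 p53 libraries and 1 PPAR-alpha library were used, grouped by their labels. The authors deposited 1 list per library with a score per summit, which no label explains and whose range led to its being taken as a −log10 p- or q-value in the deposited files. It served only to describe and filter summits of its own list. Per the submitters' processing notes the tools were MACS2 2.1.2, Bowtie2 2.3.4.2 and Picard 2.9.0, with no roles stated. Not given in the sources used here are the calling threshold, the control, the read numbers and the treatment of reads with several matches.

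The submitters' processing notes name the human build GRCh38 for these mouse samples. Against RefSeq genes of GRCm38.p6, 42.0 to 49.2% of summits lay within 1 kb of a gene end as deposited, and 6.38 to 8.2% after moving them. GRCm38.p6 was therefore used, with positions counted from 1.

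Distances ran from a summit to either gene end, within 5 kb (main) or 1 kb. Clusters joined neighbours at most 500 kb apart. Summits within 100 bp counted as shared. Strand came from the RefSeq promoter table, which held 62 of the 67 histone genes. No test was run, since the design allows none. Counting was tested on simulated data. Python 3.11.15, pandas 2.3.3, numpy 2.4.6, scipy 1.17.1 and matplotlib 3.10.9 were used. The named genes were histone genes with a summit within 1 kb in any list or within 5 kb in all 3 lists, plus the members of the other lists with a summit within 5 kb. Other histone genes, such as H1f5, H1f6 and those in stretches without a summit, were named after their values were seen. The histone genes and lists were chosen with earlier results of these data known. Alternatives were windows of 1 and 20 kb, scores of 5 or more, the nearest gene only, gene bodies, equal list lengths, removal of dense runs (at least 5 summits within 50 kb), current symbols only, other sharing windows, a cluster gap of 100 kb and leaving out each p53 replicate. Removal of summits at tRNA genes and the alternatives for 3′ ends were added after seeing the data.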

Additional observations from a re-analysis of the deposited data

How the results depend on the processing

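Histone genes had a larger share near a summit than all protein-coding genes in each list under the window, nearest-gene, list-length, dense-run, symbol and tRNA alternatives. Of these, only the 1 kb window had intervals, and there that of PPAR-alpha held the share of all genes. With a score of 5 or more the p53 replicate 1 share, 5.97% against 4.19%, rests on 3 distinct summits and is near that of all genes. The p53 replicate 2 share, 8.96% against 5.31%, rests on 4 distinct summits. No interval was computed under this limit, so neither p53 share is set apart from that of all genes. Of the recomputed values, 92 of 135 stayed within 1.5 times the reported one. Within 1 kb, histone genes near a summit were 15 in p53 replicate 2, 10 in PPAR-alpha, 6 in both p53 replicates and 4 in all 3 lists. Within 20 kb they were 50 and 45 in p53 replicates 1 and 2, 37 in PPAR-alpha, 43 in both and 30 in all 3. Assigning a summit to its nearest gene only gave 17, 14, 10, 5 and 5 in the same order. With a score of 5 or more they were 4 and 6 in p53 replicates 1 and 2, 1 in both and 1 in all 3 lists, from 3, 4 and 6 distinct summits in p53 replicates 1 and 2 and in PPAR-alpha. Without dense runs, both p53 replicates held 9 and all 3 lists 6. For these 20 kb, nearest-gene, score and dense-run counts, the share of all genes was computed for single lists only, not for overlaps. Leaving out a p53 replicate turned the count of both into that of the other, 27 to 32. Sharing within 500 bp was 4 between the p53 replicates, 5 between p53 replicate 1 and PPAR-alpha and 4 between p53 replicate 2 and PPAR-alpha. Within 50 bp the last was 0, and with a score of 5 or more p53 replicate 1 and PPAR-alpha shared 1. By cluster, a window of 1 kb left 3 distinct PPAR-alpha summits on chromosome 3, 1 of p53 replicate 2 on chromosome 11, and 0 of p53 replicate 2 and 0 of PPAR-alpha in the first chromosome 13 cluster. A gap of 100 kb made 7 clusters and left 2 summits of p53 replicate 1 in the first part of that cluster. By type, within 1 kb p53 replicate 2 had 1 H1, 3 H2A, 3 H2B and 3 H3 genes, and PPAR-alpha had 2 H2B and 0 H3 genes. Summits nearest a 3′ end with a score of 5 or more were 1 in p53 replicate 1 and 0 in p53 replicate 2. Smaller windows, higher scores and nearest-gene assignment use fewer summits or genes by construction. Without summits within 500 bp of a tRNA gene, 32, 26 and 15 histone genes had a summit within 5 kb in p53 replicates 1 and 2 and in PPAR-alpha. No paired analysis was possible because PPAR-alpha has 1 library and no test was made. Depth is unknown, and an empty gene may have had a peak below the calling threshold.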

Other observations

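Inside the first chromosome 13 cluster, the PPAR-alpha summits lay at tRNA genes, which RNA polymerase III transcribes, and not at histone genes. The 4 that lay more than 5 kb from a histone gene were at 21940429, 21974626, 22015869 and 22026611, with a tRNA gene as the nearest gene at 39, 406, 6 and 0 bp. p53 replicate 1 had no summit there, and the 1 of p53 replicate 2, at 22006196 (2.37), lay in Prss16, which encodes a thymus-specific serine protease.

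Of 10 other protein-coding genes inside the histone clusters, 2, 3 and 2 had a summit within 5 kb in p53 replicates 1 and 2 and in PPAR-alpha. With 10 genes the exact intervals of these shares (2.52 to 55.6%, 6.67 to 65.2% and 2.52 to 55.6%) held the shares of all genes, 13.0%, 16.4% and 12.3%. Hfe, a gene of iron homeostasis, lies between the histone genes of the second chromosome 13 cluster. It had summits of p53 replicate 1 at 23709426 (2.18) and 23710772 (2.74), the latter 82 bp from its end. The p53 replicate 2 summit within 5 kb of Hfe (4.33), 4239 bp away, is the one next to H4c3. Trim17, which overlaps H2aw, had summits in all 3 lists, Prss16 in p53 replicate 2 and Zfp184 in PPAR-alpha. Pom121l2, Trim38 and the sodium phosphate transporter genes Slc17a1, Slc17a2, Slc17a3 and Slc17a4 had none.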
